A study of Mus musculus with 4 samples.

Results

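The cytosolic ribosomal protein genes of the mouse lens were taken as the protein-coding genes of the deposited table whose symbols begin with Rpl or Rps and carry a number, with the P-stalk genes Rplp0, Rplp1 and Rplp2, and Rpsa. The rule left out the ribosomal S6 kinases and found 80 genes among the 56748 of the table, 49 of the large subunit and 31 of the small subunit. No measured value chose them.

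Lenses came from 10 to 12 day old mice in which the Fsp1 promoter drives Cre. Mutant mice were Fsp1-cre;Pdgfrb+/D849V and so carried a hyperactive allele of PDGFRβ, the receptor for platelet-derived growth factors B and D. Each genotype had 2 polyA RNA libraries. The control libraries are labelled Fsp1-cre;Pdgfrb+/+, whereas the study's methods describe control pools that also held Pdgfrb+/+ and Pdgfrb+/D849V mice without Cre. All mice were of an FVB/N line that also carried a tdTomato reporter. Lenses of several mice were pooled for each library, so an animal cannot be followed in these data, and Fsp1-cre is not specific to the lens. Nothing ties the libraries of a group to separate litters, and p-values measure the spread between these 4 pools.

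Ribosomal proteins and ribosomal RNAs build the cytosolic ribosome. The small subunit reads the messenger RNA and the large subunit joins amino acids, while the P stalk of the large subunit calls in the elongation factors. Most ribosomal protein mRNAs start with a C followed by a run of pyrimidines, the 5′ terminal oligopyrimidine (TOP), through which mTOR signaling adjusts their translation together. The genes have also left many processed copies in the genome, made when their mRNA was copied back into DNA. In the lens, fibre cells fill with crystallin while they still hold ribosomes and lose their organelles as they mature.

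The shared start sequence could be looked at directly. RefSeq start windows (GRCm38.p6) were found for 60 of the 80 genes. The annotated first base was C and was followed by at least 4 further bases that were C or T in 13 of the 60 genes (21.7%). The same held for 451 of 16770 protein-coding genes of the table (2.69%). The letters CTTTCC stood within 50 bases of the start on the gene's own strand in 19 of the 60 genes (31.7%) and in 5.10% of the protein-coding genes. The 13 windows are shown because the rule did not use them. Each holds 8 bases before the annotated start and 22 bases from it, and capitals mark the pyrimidine run counted from that start onward. In each window the base just before the annotated start was also C or T, so the genomic run reaches further upstream.
Rpl14, chr9:120571509-120571538, plus strand: ccctctctCTTCTCgctgagcgccgccaac
Rpl15, chr14:18270965-18270994, minus strand: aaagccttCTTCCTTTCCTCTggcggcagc
Rpl28, chr7:4792957-4792986, plus strand: tcgtgtctCTCTTTCCgtctccggccgcca
Rpl35, chr2:39005110-39005139, minus strand: gccctttcCTCTTTCTCTCgaaccaggctg
Rpl35a, chr16:33056474-33056503, plus strand: ttgccttcCTCTTTCCgccatcttggcgcc
Rpl38, chr11:114668572-114668601, plus strand: gcctcgttCTTTCCCCgttctcttcggttc
Rplp2, chr7:141447643-141447672, plus strand: gcgtcttcCTTTCgccgccggacgccgccg
Rps10, chr17:27635223-27635252, minus strand: gcacgcccCTTCCTTTCCagcctccgcctc
Rps15a, chr7:118116126-118116155, minus strand: tctgccatCTTCCCTCgccggtgagtgagt
Rps18, chr17:33955644-33955673, minus strand: cttccgctCTCTCTTCCacaggaggcctac
Rps21, chr2:180257371-180257400, plus strand: gacccgccCTCCTgcccaatagtgctgcgg
Rps27, chr3:90213627-90213656, minus strand: ctttcgctCCTTTCCggcggtgacgacctc
Rps6, chr4:86857346-86857375, minus strand: agtcgggcCTCTTTTTCgtgacgcctccca
Counted from the annotated start, the runs were between 5 bases (Rplp2 and Rps21) and 13 bases (Rpl15) long. The share depends on how exactly a start is annotated. A run that began with a C within 10 bases of the annotated start on either side, after a base other than C or T, was found in 30 of the 60 genes and in 27.4% of the protein-coding genes, a much smaller contrast.

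The values are FPKM as deposited, fragments per kilobase of gene length divided by a denominator of each library. Multiplied by gene length they were whole multiples of a step in every library, so whole reads could be recovered. A library held between 18561682 and 18878768 reads. The denominators did not follow these totals. Rpl41 had 751 FPKM from 15639 reads in mutant replicate 1, where the total was 18878768. It had 727 FPKM from 16627 reads in mutant replicate 2, where the total was 18671765. Crystallins took 58.6% to 62.9% of the reads. Lens fibre markers summed to between 145395 and 174067 FPKM in the 4 libraries, with 1 of 9 markers (Lim2) listed at 0, and epithelial markers to between 131 and 156 FPKM. Summed levels were at most 34.9 FPKM for red blood cell markers (Hba-a2 listed at 0), 6.51 for vessel, 1.72 for retina, 1.34 for pigmented ciliary and iris and 0.766 for leukocyte markers. Among the markers with a limma p under 0.05, the fibre marker Lgsn and the mural cell marker Rgs5 were lower in the mutant, and the leukocyte marker Cd68 was higher. In bulk lenses, fewer cells of a type and less RNA per cell cannot be told apart.

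Ribosomal protein genes took 2.03% and 1.97% of the reads of mutant replicates 1 and 2, and 2.02% and 1.89% of those of control replicates 1 and 2. Without the crystallins, the shares were 5.46% and 4.77% in the mutant, against 4.92% and 4.91% in the control. As a share of summed FPKM they made up 1.77% ± 0.0335 (SD, n = 2) in the mutant, against 1.76% ± 0.118 (SD, n = 2) in the control, a difference of 0.00704 percentage points that was within the spread of either group.

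Levels differed far more between the genes than between the libraries. The median of the 80 genes was 107 FPKM, against 1.12 FPKM over the 15974 genes with a mean of at least 0.1 FPKM. The quartiles of the genes were 51.7 and 208 FPKM, and 21 of the 80 were among the 100 genes with the highest mean FPKM of the table. The median was 125 FPKM over large subunit genes and 102 FPKM over small subunit genes. Among the 69 genes with at least 10 FPKM, the SD over the 4 libraries had a median of 9.01% of the mean.

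**Figure D1:**
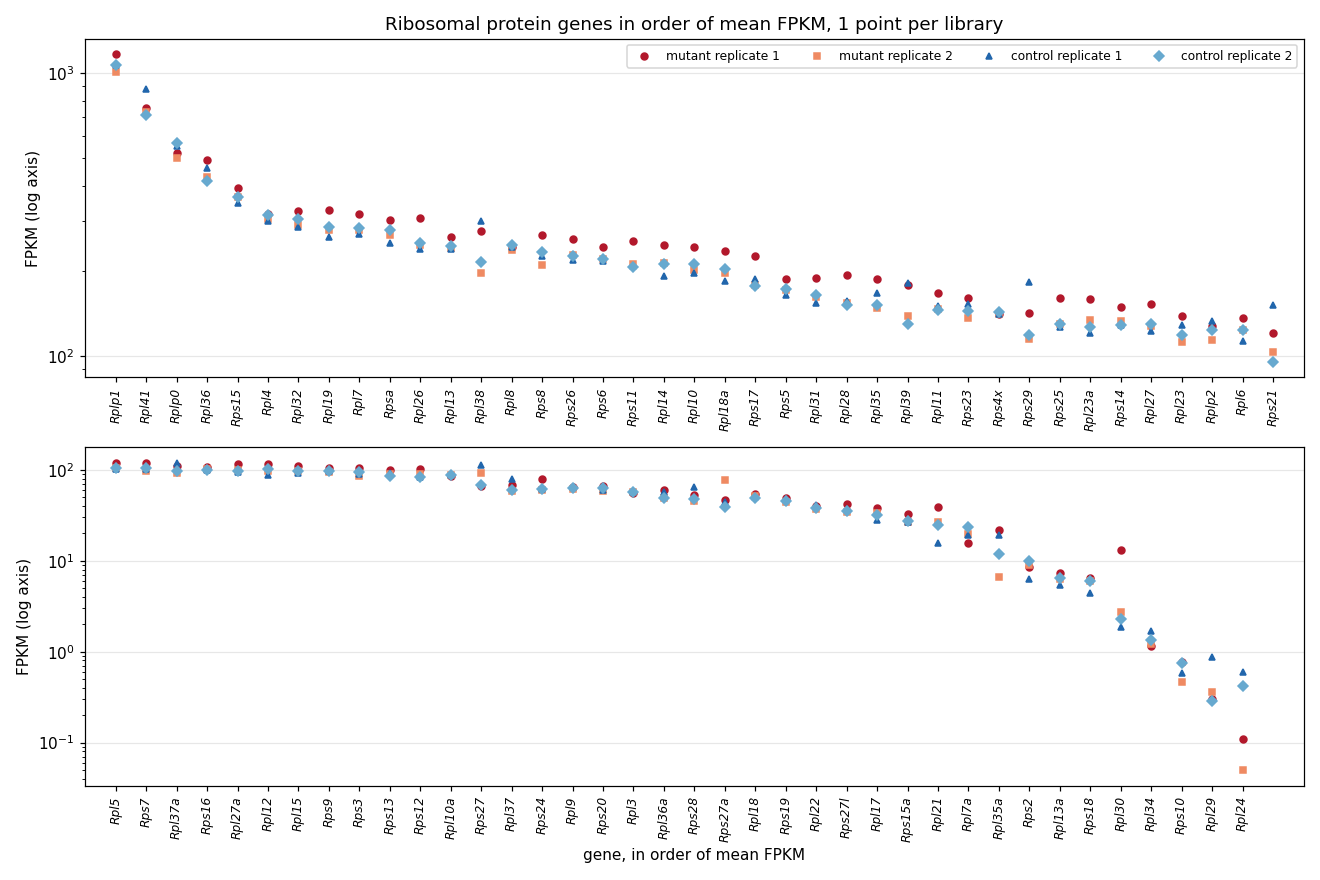
FPKM (vertical, log axis) of the 77 ribosomal protein genes with a mean of at least 0.1 FPKM, in order of their mean; each point is a library, red and orange for the mutant and blue for the control. The means of 61 genes are at least 50 FPKM, and the last 8 genes, from Rps2 to Rpl24, fall away from 8.50 to 0.295 FPKM.

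Of the P stalk, Rplp1 and Rplp0 were near the top of the order, while Rplp2 stood at rank 37. Rplp1, an acidic stalk protein, stood first with 1166 and 1013 FPKM in mutant replicates 1 and 2 and 1065 and 1065 FPKM in the control. Rplp0, the base of the stalk, had 521 and 502 FPKM in the mutant, against 552 and 567 FPKM in the control. Rplp2, the partner of Rplp1, had 128 and 114 FPKM in the mutant, against 133 and 124 FPKM in the control. Rplp1 was above its partner in every library, by a margin that depends on gene length: the deposited length of Rplp2 is 4.92 times its principal mRNA and that of Rplp1 is 1 times. Per kilobase of principal mRNA, the means were 20241 reads for Rplp1 and 11556 reads for Rplp2. Of the stalk genes only Rplp0 was lower in both mutant libraries than in both control libraries.

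Rpl41, the smallest protein of the ribosome, was second with 751 and 727 FPKM in the mutant, against 878 and 714 FPKM in the control. Rpl36 of the large subunit followed Rplp0 with a mean of 450 ± 35.1 FPKM (SD, n = 4). Rps15, a protein of the small subunit head, came next with 368 ± 17.8 FPKM (SD, n = 4). The ranges of these leading 5 genes did not overlap with those of their neighbours in the order. Further down, the ranges of neighbours overlapped in all but 3 pairs. Over the genes with at least 1 FPKM, 65 of 73 neighbouring pairs overlapped, so most ranks cannot be told apart.

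FPKM divides by the gene length of the deposited table, which counts every annotated exon and had a median of 2.35 times the length of the principal mRNA. Counted as reads per kilobase of coding sequence, 5 of the 10 highest genes stayed among the 10 highest, with Rpl41 first and Rplp1 second. Counted per kilobase of principal mRNA, 5 of 10 stayed as well, and Rpl41 and Rplp1 again led. At the low end, 9 of the 10 lowest genes were the same on either scale.

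Other genes with known special roles lay in the upper range. Rpsa, which also acts as a laminin receptor, had 304 and 268 FPKM in the mutant, against 251 and 279 FPKM in the control. Rps6, the substrate of S6 kinase, had 244 and 221 FPKM in the mutant, against 218 and 220 FPKM in the control. Rps26, at the mRNA exit channel, had 259 and 228 FPKM in the mutant, against 220 and 226 FPKM in the control. For Rps6 and Rps26 both mutant libraries lay above both control libraries by a narrow margin, whereas the groups of Rpsa overlapped. The near-identical pseudogene Rps26-ps1, which the study lists as lower in the mutant, had 14 and 40 reads there, against 155 and 170 in the control. With the reads of its copies added, the groups of Rps26 overlapped.

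The 4 genes on the X chromosome differed in how evenly they were measured. Rps4x, a small subunit protein, had 142, 142, 142 and 143 FPKM in mutant replicates 1 and 2 and control replicates 1 and 2, an SD of 0.481% of the mean. Rpl10, which completes the large subunit late in assembly, varied from 197 to 243 FPKM. Rpl39, at the protein exit tunnel, varied from 131 to 181 FPKM. Rpl36a varied from 48.6 to 60.3 FPKM. Groups overlapped for all 4 genes.

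Variant genes of the family were low or not seen. Rpl3l, known from heart and skeletal muscle, and Rpl10l, known from testis, had 0 reads in every library, which allows up to 3 reads per library for counting error. Rpl39l, also known from testis, had 1 read in 1 control library. Their parents Rpl3, Rpl10 and Rpl39 averaged 57.0, 214 and 158 FPKM. Rps27l, a p53-responsive relative of Rps27, was the exception with 37.2 FPKM against 84.9 FPKM for Rps27.

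Relatives that the naming rule leaves out were lower than their parents as well. Rpl22l1 varied from 8.95 to 11.6 FPKM where Rpl22 averaged 39.0 FPKM. Rpl7l1 varied from 4.86 to 5.98 FPKM where Rpl7 averaged 288 FPKM. Rpl36al varied from 0.0415 to 0.241 FPKM, between 1 and 6 reads a library. Rps4l, which the table annotates as a transcribed pseudogene, averaged 7.91 FPKM.

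Under 10 FPKM lay 8 of the 77 genes above the filter, and most of these stood beside a copy that held many more reads. Coding sequences of ribosomal proteins overlap widely with their copies: of the words of 31 bases in a coding sequence, a median of 96.6% also occurred in another annotated gene (GENCODE, GRCm38), and in 31 of the 80 genes all of them did. At the other end stood Rpl8, with 5.43% of its words of 75 bases shared. Named pseudogenes belonged to 62 of the 80 genes, 319 in all. Reads of each gene were set beside those of the genes that shared at least 20% of their words with it, here called its copies. A gene and its copies held a median of 94.5% of their summed reads on the gene itself. In 9 genes that had reads, under 50% were on the gene: Rpl29, Rpl34, Rps10, Rps2, Rpl30, Rps18, Rpl24, Rpl17 and Rpl21. Reads on named pseudogenes alone were most numerous for Rps2, with a mean of 8157 a library, followed by Rpl34 with 4335, Rpl17 with 3867, Rps7 with 2782 and Rpl3, next to the peptidyl transferase centre, with 2297. Rps7 and Rpl3 still kept 58.5% and 59.7% of the summed reads on the gene.

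The next sequences show how small the difference between gene and copy is. Each line holds 60 bases of coding sequence, with the bases that differ between the gene and its copy in capitals, and these windows were chosen to hold the most differences (GENCODE M21, GRCm38). Positions count from 1 at the start codon.
Rpl34, coding positions 102 to 161: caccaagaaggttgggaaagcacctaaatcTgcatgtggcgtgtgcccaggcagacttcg
Rpl34-ps1: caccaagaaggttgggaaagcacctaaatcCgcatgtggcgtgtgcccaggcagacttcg
Rps10, coding positions 386 to 445: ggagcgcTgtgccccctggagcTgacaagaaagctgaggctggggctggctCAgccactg
Rps10-ps2: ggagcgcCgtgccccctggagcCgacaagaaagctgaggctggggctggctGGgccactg
Rps18, coding positions 141 to 200: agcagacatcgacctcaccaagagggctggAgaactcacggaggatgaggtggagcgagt
Rps18-ps5: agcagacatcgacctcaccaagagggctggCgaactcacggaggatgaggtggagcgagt
Rpl29, coding positions 42 to 101: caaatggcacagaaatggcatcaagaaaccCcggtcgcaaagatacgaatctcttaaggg
Gm13841: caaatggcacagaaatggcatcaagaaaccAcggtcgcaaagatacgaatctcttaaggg
Rpl30, coding positions 66 to 125: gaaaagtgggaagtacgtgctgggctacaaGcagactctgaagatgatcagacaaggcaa
Gm12191: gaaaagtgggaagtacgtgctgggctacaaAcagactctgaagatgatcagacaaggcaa

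Rpl34 of the large subunit (chr3:130520480-130524047, positions of the deposited table, mm39) had 54 and 63 reads in mutant replicates 1 and 2 and 86 and 66 reads in the control. Its processed pseudogene Rpl34-ps1 (chr6:71101594-71101947) had 4951 and 4256 reads in the mutant, against 4038 and 4091 reads in the control. The coding sequences were 99.4% identical, with the substitutions T132C and C318G from gene to copy. Gene and copies together held between 4139 and 5021 reads a library, of which 1.52% were on the gene.

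Rps10, near the mRNA entry side of the small subunit (chr17:27849392-27855643), had 32 and 21 reads in the mutant, against 26 and 32 reads in the control. Rps10-ps2 (chr16:20640895-20641390) had 1621 and 1550 reads in the mutant, against 1626 and 1578 reads in the control. Summed with its copies, Rps10 varied by an SD of 2.12% of the mean over the 4 libraries, against 19.2% for its own reads.

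Rps18, of the small subunit head, had 285 and 289 reads in the mutant, against 210 and 273 in the control, and Rps18-ps5 (chr13:28441511-28442117), annotated as protein coding, had 1816 and 1630 reads in the mutant, against 1780 and 1405 in the control. Rpl29 had 6 and 8 reads in the mutant, against 19 and 6 in the control, beside 933, 961, 739 and 920 reads on Gm13841 (chr5:115939736-115940218) in the same order of libraries. Rps2, a small subunit protein at the mRNA entry, had 282 and 325 reads in the mutant, against 222 and 339 in the control, which was 3.40% of the reads on the gene and its copies.

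Rpl30 (chr15:34440651-34443786), a large subunit protein, had 713 reads in mutant replicate 1, 161 in mutant replicate 2, and 109 and 126 in the control. Gm12191 (chr11:49569537-49569884), which differs from the coding sequence of Rpl30 by the single substitution G96A, had 2968 and 3081 reads in the mutant, against 3228 and 2891 in the control. Only mutant replicate 1 was high for Rpl30, and the copy did not stand out in that library.

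Rps27, a zinc finger protein of the small subunit, showed the opposite arrangement with Rps27rt (chr9:114811434-114811807), an intronless copy annotated as protein coding whose coding sequence is 100% identical over 255 bases. Rps27 had 1249 reads in mutant replicate 1, 1878 in mutant replicate 2, 2293 in control replicate 1 and 1296 in control replicate 2. Rps27rt had 1086, 222, 277 and 681 reads in the same order. The libraries low for Rps27 were high for Rps27rt, and they are a mutant and a control library. After scaling by the denominators of the FPKM, the sum of both genes varied by an SD of 11.8% of the mean, against 26.0% for Rps27 and 74.8% for Rps27rt. The libraries high for Rps27rt were also those with low Xist, which is expressed from the inactive X of females: 7.62 FPKM in mutant replicate 1 and 5.56 FPKM in control replicate 2, against 13.1 and 15.6 FPKM in mutant replicate 2 and control replicate 1. The part of this in the Rps27 values was not tested.

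Rpl24 and Rpl13a had no copy with many reads. Rpl24 (chr16:55786638-55791798), which bridges the subunits, and its copies together held 31 to 53 reads a library. Rpl13a, a large subunit protein with known functions outside the ribosome, had 95.3% of its 245 to 283 summed reads on the gene itself. How reads that match several places were counted is not given in the sources used here, so the level of a gene whose copy is nearly identical is uncertain.

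**Figure D2:**
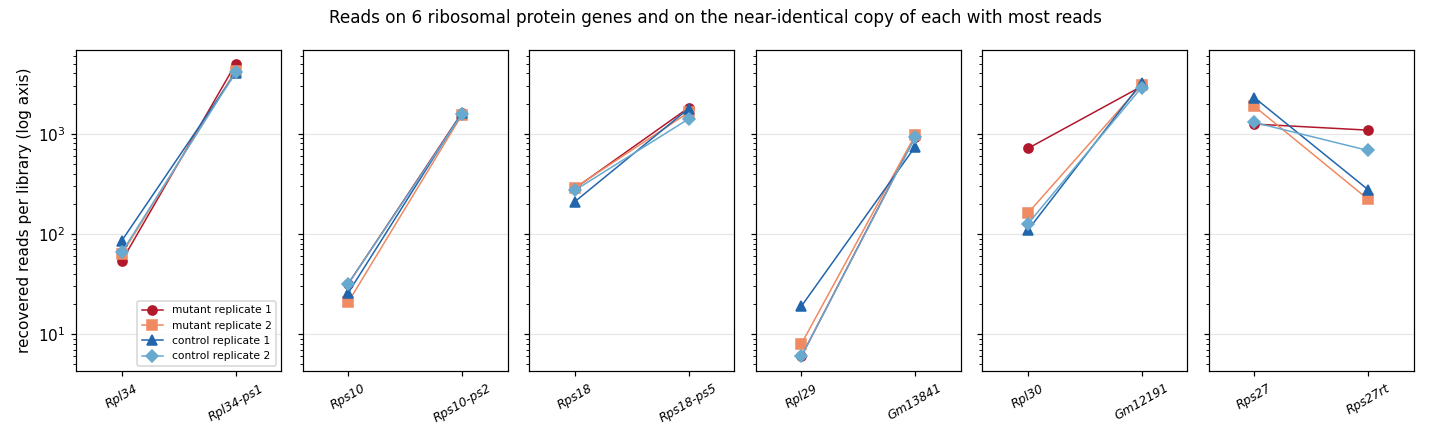
Recovered reads per library (vertical, log axis) on 6 ribosomal protein genes and, to the right in each panel, on the copy with most reads; lines join the values of a library. For Rpl34, Rps10, Rps18, Rpl29 and Rpl30 every line rises to the copy, while for Rps27 the 4 lines fall and cross, with mutant replicate 1 and control replicate 2 highest on Rps27rt.

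Mutant and control lenses were then compared, the contrast the study was built for. The median log2 fold change of the 77 ribosomal protein genes tested, mutant minus control, was 0.08, against 0.00 over all 15974 genes tested. An unadjusted p of 0.05 was not passed by 76 of the 77. Of all genes tested only 6.32% passed it in either direction. With 2 libraries per genotype, a gene that does not pass is not shown to be unchanged. Of the 77 genes, 0 were higher and 1 (Rpl24) was lower at an unadjusted p under 0.05 by limma on log2(FPKM + 0.1). Over all genes tested, 3.39% were called higher and 2.92% lower. With Benjamini-Hochberg adjustment over all genes tested, 0 of the 77 passed 0.05 in limma and 0 passed in voom on the recovered reads, where 3 had an unadjusted p under 0.05 (4.86% of all genes). Over all genes, 0.0376% passed in limma and 0% in voom. No exact test of 2 against 2 libraries can reach 0.05, since its smallest two-sided p is 0.333.

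For 53 of the 77 genes the fold change was above 0 (68.8%, against 50.8% of all genes tested). Other protein-coding genes with at least 10 FPKM leaned the same way. Above 0 were 62 of 89 with a coding length under 300 bases, 257 of 336 of 300 to under 600 bases and 618 of 997 longer ones. Ribosomal protein genes with at least 10 FPKM had 2 of 10, 34 of 40 and 13 of 19 above 0 in these classes. For 17 genes both mutant libraries were above both control libraries (18.2% of all genes were so) and for 4 genes below (18.3% of all genes). This split followed the scaling: it was 30 above and 4 below with FPKM on the total of recovered reads, where 15.3% of all genes were above, and 11 above and 6 below with FPKM on reads outside crystallins, where 16.4% were above. The large subunit had 30 of 46 genes above 0 with a median of 0.06, and the small subunit 23 of 31 with a median of 0.08. In 67 of the 77 genes the fold change was under 0.25 in size. The 95% interval lay within 0.5 on either side of 0 for 53 genes and within 1 for 71 genes. The median standard error was 0.12, against 0.21 over all genes.

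**Figure D3:**
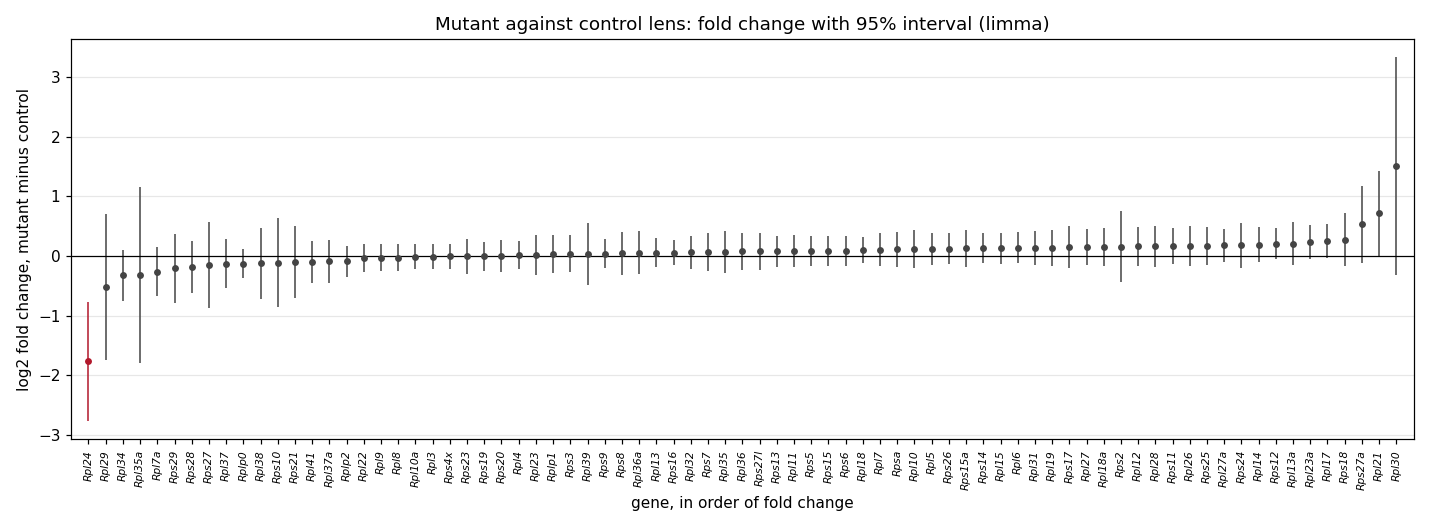
Log2 fold change of mutant over control (vertical) of the 77 ribosomal protein genes in order of size, with 95% intervals from limma on 2 libraries per genotype; red marks an unadjusted p under 0.05. Most points lie within 0.25 of 0, Rpl24 is the only interval clear of 0, and Rpl30, Rpl35a and Rpl29 have the widest intervals.

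Rpl24 had 0.109 and 0.0496 FPKM in the mutant, against 0.599 and 0.421 FPKM in the control, a log2 fold change of -1.77 ± 0.39 (SE; adjusted p = 0.604, limma with Benjamini-Hochberg adjustment). These values rest on 2 and 1 reads in the mutant, against 12 and 8 reads in the control. With the reads of its copies added, Rpl24 had a log2 fold change of 0.33, in the other direction. The part of read placement in this difference was not tested.

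The next genes by p were higher in the mutant, and none of them passed the test. Rpl21, of the large subunit, had 39.0 and 26.9 FPKM in the mutant, against 15.6 and 25.0 FPKM in the control (log2 fold change 0.71 ± 0.28 SE, adjusted p = 0.787 by limma). Rpl30 had 13.2 and 2.72 FPKM in the mutant, against 1.86 and 2.26 FPKM in the control, a log2 fold change of 1.51 with a 95% interval from -0.31 to 3.34. Without mutant replicate 1 the log2 fold change of Rpl30 was 0.39. Rps27a, which is made as a fusion with ubiquitin, had 46.6 and 77.8 FPKM in the mutant, against 44.6 and 38.8 FPKM in the control. Its log2 fold change was 0.53 ± 0.25 (SE), and 0.16 without mutant replicate 2. With the reads of their copies added, the log2 fold change was 0.14 for Rpl30, 0.29 for Rpl21 and 0.45 for Rps27a. The groups did not overlap for these 3 genes, but the libraries within a group differed widely: mutant replicate 1 was high for Rpl30 and mutant replicate 2 for Rps27a, while Rpl21 was highest in mutant replicate 1 and lowest in control replicate 1.

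Rpl17 and Rpl23a, both near the protein exit tunnel, had smaller differences. Rpl17 had 38.2 and 33.5 FPKM in the mutant, against 28.3 and 31.8 FPKM in the control, a log2 fold change of 0.25 ± 0.11 (SE) that ran from 0.16 without mutant replicate 1 to 0.35 without mutant replicate 2. With the reads of its copies added, that of Rpl17 was 0.12. Rpl23a had 159 and 134 FPKM in the mutant, against 121 and 127 FPKM in the control, a log2 fold change of 0.24 ± 0.11 (SE) that ran from 0.11 without mutant replicate 1 to 0.36 without mutant replicate 2. Among the genes lower in the mutant after Rpl24 stood Rpl34 at -0.33 ± 0.17 (SE), Rpl7a at -0.27 ± 0.16, Rplp0 at -0.13 ± 0.10 and Rps28 at -0.19 ± 0.17. The groups did not overlap for Rpl34 and Rplp0. With the reads of its copies added, Rpl34 changed sign to 0.18.

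Rpl27a, a large subunit protein, had 117 and 99.7 FPKM in the mutant, against 93.9 and 97.2 FPKM in the control, with a log2 fold change of 0.18 ± 0.11 (SE). Its copy Gm7536, which the study lists as lower in the mutant, was identical over 444 aligned bases. This copy had 320 and 312 reads in the mutant, against 770 and 545 in the control. With the reads of its copies added, Rpl27a had a log2 fold change of 0.08 and its groups overlapped. Rpl35a was the most uneven gene above 10 FPKM, with 21.8 and 6.69 FPKM in the mutant, against 19.3 and 11.9 FPKM in the control. Its SD was 46.3% of the mean, so that its 95% interval of the log2 fold change ran from -1.80 to 1.15.

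On the deposited scale, the leaning of the genes above 0 lay mostly with 1 library. In mutant replicate 1, 54 of the 77 genes (70.1%) had their highest FPKM, against 1 gene in mutant replicate 2, 16 in control replicate 1 and 6 in control replicate 2. The median deviation from the gene's own mean was 0.15 on the log2 scale in mutant replicate 1 and between -0.06 and -0.03 in the other 3 libraries. Of all genes tested, 29.0% were highest in mutant replicate 1. Of 425 other protein-coding genes with at least 10 FPKM and a coding length under 600 bases, 63.3% were highest there, so the ribosomal protein genes shared this with other abundant short genes. Without mutant replicate 1 the median log2 fold change of the 77 genes was -0.01, with 34 above 0. Without mutant replicate 2 it was 0.18, with 62 above 0. As a share of all reads, mutant replicate 1 stood out less. The ribosomal protein genes took 2.03% there and 1.97% in mutant replicate 2, against 2.02% and 1.89% in control replicates 1 and 2.

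**Figure D4:**
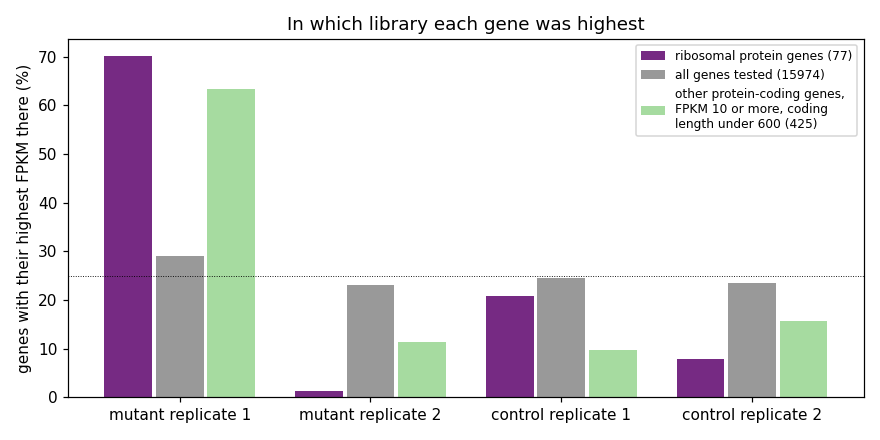
Share of genes (vertical, percent) whose highest deposited FPKM fell in each of the 4 libraries. The sets are the ribosomal protein genes, all genes tested and other abundant protein-coding genes with short coding sequences. The dotted line marks an even share. Mutant replicate 1 stands out for the first and the last set, with 70.1% and 63.3%, and not for all genes, with 29.0%.

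In the control, the libraries differed most, by the median, for the genes with the shortest coding sequences. In the mutant, the median was nearly the same under 300 bases (0.24) as at 300 to under 600 bases (0.22). A coding length under 300 bases belonged to 10 genes with at least 10 FPKM: Rpl41, Rpl39, Rps29, Rps28, Rpl38, Rps21, Rps27, Rps27l, Rpl37a and Rpl37. In 9 of these the library numbered 1 was above the library numbered 2 in both genotypes, by a median log2 difference of 0.24 in the mutant, against 0.45 in the control, and Rps27 was the exception in the mutant. In the 40 genes of 300 to under 600 bases, the median differences were 0.22 in the mutant, against 0.01 in the control. In the 19 longer genes they were 0.14 and -0.07, and 0 of 19 were higher in replicate 1 of both genotypes.

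Rps29, a zinc finger protein of the small subunit, shows the pattern with 142 and 115 FPKM in the mutant, against 183 and 120 FPKM in the control. Rps21 had 121 and 104 FPKM in the mutant, against 152 and 95.7 FPKM in the control. Rpl38, known for its part in the translation of Hox mRNAs, had 276 and 197 FPKM in the mutant, against 301 and 216 FPKM in the control. In each of these genes the groups overlapped and control replicate 1 was highest.

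Across the 69 genes with at least 10 FPKM, the difference between the control libraries had a Pearson r of -0.63 and a Spearman rho of -0.65 with the length of the coding sequence (its log2 for Pearson), and that between the mutant libraries -0.19 and -0.39. These are correlations across genes that share the same libraries, given as a description. Among other protein-coding genes with at least 10 FPKM, 45 of 89 (50.6%) with a coding length under 300 bases were higher in replicate 1 of both genotypes, with median differences of 0.21 in the mutant, against 0.02 in the control. The 10 short ribosomal protein genes also differed from the rest in the genotype contrast, with 8 below 0 and a median of -0.11, against 34 of 40 above 0 and a median of 0.11 for those of 300 to under 600 bases. Since the control libraries themselves differed by 0.45 in the short genes, this contrast was smaller than the spread between replicates.

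**Figure D5:**
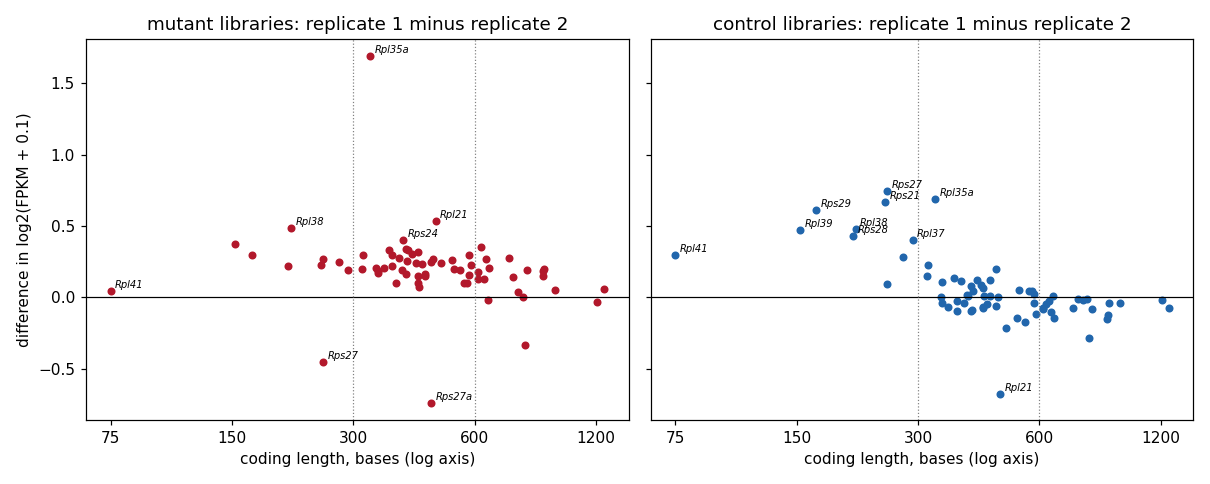
Difference in log2(FPKM + 0.1) between the library numbered 1 and the library numbered 2 (vertical), against coding length (horizontal, log axis), for the 69 ribosomal protein genes with at least 10 FPKM in mutant (red) and control (blue); dotted lines mark 300 and 600 bases. In the control, all 10 genes under 300 bases lie above 0 and most longer ones near or below it, with Rpl35a above 0 at 0.69, while in the mutant nearly all points lie above 0 with Rps27a, Rps27 and Rpl7a the lowest.

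Genes that act with the ribosomal proteins were counted from lists. Of 7 further ribosomal proteins tested, none passed the unadjusted threshold. Fau, which encodes Rps30 as a fusion, had 186 and 183 FPKM in the mutant, against 177 and 163 FPKM in the control. Rack1, the signaling scaffold of the small subunit, had 105 and 97.8 FPKM in the mutant, against 89.6 and 99.6 FPKM in the control.

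Among 20 translation mRNAs with a known TOP start other than these, 1 was higher, 0 were lower and the median was 0.07. It was Npm1, a nucleolar chaperone, with 23.4 and 23.7 FPKM in the mutant, against 16.3 and 17.7 FPKM in the control (log2 fold change 0.47 ± 0.09 SE, adjusted p = 0.507 by limma). Of 37 initiation and elongation factors, 3 were higher and 0 lower with a median of 0.06. These were Eif3j2, a part of eIF3, at 0.43 ± 0.12 (SE), the cap-binding protein Eif4e at 0.37 ± 0.11 and Eif2s2, a subunit of eIF2, at 0.29 ± 0.10. Of 46 ribosome assembly factors, 2 were higher and 2 lower with a median of 0.01. Utp15, which acts in small subunit processing, was at 0.66 ± 0.15 (SE), Lsg1, a GTPase of late large subunit assembly, at 0.34 ± 0.12 and the pseudouridine synthase Dkc1 at -0.61 ± 0.14. None of these genes passed the Benjamini-Hochberg adjustment over all genes in limma, and their unadjusted calls stand beside the 6.32% of all genes called in either direction.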

How the data were processed

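The authors deposited FPKM of each gene in 4 libraries with gene length, position and biotype. Per the study's methods, reads were aligned with HISAT2 and counted with featureCounts, and the submitters' processing notes name mm39. The deposited gene length, position and biotype columns were used as given. How multi-mapping reads were counted is not given in the sources used here. No per-sample column was left unused (0).

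The deposited FPKM had the same median ratio to the geometric mean (1.01) in every library. Whole reads were recovered from FPKM times gene length (100% of values within 0.001 of a whole number). Limma (trended eBayes, Benjamini-Hochberg adjusted) compared mutant minus control over all 4 libraries, on log2 of the FPKM plus 0.1, for genes averaging 0.1 FPKM or more. A fold change on this scale understates the change of a low gene. Voom, other pseudocounts (1 and 0.01), filters, scalings, a replicate block, an Xist covariate, reads of copies added and each library left out were alternatives. Sequences came from RefSeq (GRCm38.p6) and GENCODE M21 (GRCm38), whose coordinates were not mixed with those of the table. Protein sequences were not used here, so identities between paralogs are not given.

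The genes, lists and tests were chosen with earlier results of these data known. Named genes were the 5 highest and 5 lowest by FPKM, the 5 with the smallest p in each direction, paralog pairs, X-linked genes, Rps26, Rpl27a, Rps6, Rpsa, the P stalk, up to 3 genes of smallest p per list, and genes whose named pseudogenes hold most reads. Rpl13a, Rpl35a, Rps27rt, Rpl29, Rps29, Rps21, Rpl38, Rpl8, Lim2, Hba-a2 and Xist were chosen after their values were seen, as were the classes by coding length. The fit was tested on simulated reads. Software was R 4.3.3, limma 3.58.1, Python 3.11.15, numpy 2.4.6, pandas 2.3.3, Biopython 1.88 and matplotlib 3.10.9. Some genes of the lists are counted but not reported by name here.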

Additional observations from a re-analysis of the deposited data

How the results depend on the processing

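The count of 0 ribosomal protein genes with an adjusted p under 0.05 held under every alternative run, while the median log2 fold change of 0.08 ran from -0.01 without mutant replicate 1 to 0.18 without mutant replicate 2, and from 0.04 to 0.08 under the other alternatives. The count with an unadjusted p under 0.05 (1 gene) was 2 with a pseudocount of 0.01, 3 with FPKM on the total of recovered reads, 3 with voom, 6 with the Xist covariate (5 higher, with 6.86% of all genes called), and 0 when the reads of all copies were added, an alternative chosen after seeing the data. With a library left out it ran from 1 to 12, the last without mutant replicate 2, where 8.89% of all genes were called. The replicate block gave 2 genes, and it changed no adjusted call. The labels number the libraries 1 and 2 in both groups, but name no shared litter or batch. The replicate differences of the genotypes correlated at -0.01 over all genes and -0.06 over the 77. Such a correlation cannot show whether the numbers pair the libraries, since a shared factor may act on only some genes. Of the 10 short genes, 9 were higher in the library numbered 1 of both genotypes. A pairing was not tested further. The count of genes whose groups did not overlap (21) was 34 with FPKM on total reads and 34 with voom (30 higher in each, against 15.3% and 15.4% of all genes), and ran from 35 to 63 with a library left out, where fewer libraries have to be separated and between 32.1% and 37.3% of all genes were higher (17 to 55 of the 77). Of the 10 highest genes, 5 stayed per kilobase of coding sequence and 5 per kilobase of principal mRNA, the latter chosen after seeing the data. Among single genes, Rpl34 turned to 0.19 with named pseudogene reads added and to 0.18 with all copies, and Rpl24 to 0.33 with all copies. With a library left out, 3 genes changed sign: Rps27 ran from -0.52 to 0.22 (above 0 without mutant replicate 1 or control replicate 1), Rpl35a from -1.17 to 0.52 (above 0 without mutant replicate 2 or control replicate 1) and Rps28 from -0.40 to 0.026 (above 0 without control replicate 1). In 14 single genes over 251 results under alternatives, 226 kept their direction and side of the threshold, 17 passed it and 8 changed sign. Apart from left-out libraries and added copy reads, whose construction shows it, the cause was not tested. Depth limits the genes with under 100 reads a library.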

Other observations

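The mitochondrial ribosome is encoded by a separate set of nuclear genes. Of 77 mitochondrial ribosomal protein genes tested, 2 were higher in the mutant at an unadjusted p under 0.05 by limma and 0 were lower. Over all genes tested, 3.39% were called higher and 2.92% lower. The fold change was above 0 for 58 of the 77, against 50.8% of all genes tested, and the median log2 fold change was 0.12. Both mutant libraries lay above both control libraries for 23 of the 77, against 18.2% of all genes tested. They lay below for 5, against 18.3%. How far this leaning lay with mutant replicate 1 was not tested. Mrpl55 had 7.70 and 6.66 FPKM in the mutant and 5.01 and 5.49 FPKM in the control, and Mrpl1 had 1.24 and 1.08 FPKM in the mutant and 0.659 and 0.821 FPKM in the control. Neither passed the Benjamini-Hochberg adjustment (adjusted p = 0.702 and 0.760).

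Of 13 genes of RNA polymerase I, which transcribes ribosomal RNA, none passed the unadjusted threshold and the median was -0.04. Of 18 genes of mTOR signaling and its TOP regulators, Rheb, the activator of mTORC1, was higher (log2 fold change 0.33 ± 0.11 SE) and the transcription factor Mycn was lower (-0.25 ± 0.10 SE), with a median of -0.06. These are unadjusted calls, beside 6.32% of all genes, and the adjusted p was 0.769 for Rheb and 0.786 for Mycn by limma. Of 13 genes of the p53 response to ribosome stress, none passed, and the median was 0.11.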
